A study of Mus musculus with 12 samples.

Results

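The genes described are 9 members of the TGF-beta pathway in mouse tumors labelled as mutant for the Hippo kinases Lats1 and Lats2. They comprise the ligands Tgfb1, Tgfb2 and Tgfb3, the receptors Tgfbr1, Tgfbr2 and Tgfbr3, and 3 secreted factors that respond to the pathway or share its matrix, Tgfbi, Inhba and Ltbp2. They were taken by matching the Ensembl gene identifiers of the expression table to these symbols. All 9 were found among the 24432 genes of the table, and all 9 had at least 1 FPKM in at least 3 of the 12 libraries, as had 16313 genes in all. The coordinates are those of GRCm38, and all 9 are protein-coding. Tgfb1 lies at chr7:25687002-25705077 on the plus strand, Tgfb2 at chr1:186622792-186705989 on the minus strand and Tgfb3 at chr12:86056745-86079041 on the minus strand. Tgfbr1 lies at chr4:47353222-47414931 on the plus strand, Tgfbr2 at chr9:116084293-116175360 on the minus strand and Tgfbr3 at chr5:107106570-107289629 on the minus strand. Tgfbi at chr13:56609523-56639562 and Inhba at chr13:16011851-16031621 are on the plus strand, and Ltbp2 at chr12:84783212-84876532 is on the minus strand. FPKM scales a gene's fragments to the length of its transcripts and to the size of the library, so levels can be set side by side between genes.

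There were 4 groups of 3 bulk RNA libraries. Primary tumors came from the kidneys of Slc34a1CreERT2;Lats1/2flox/flox mice, and lung metastases from mice of the same genotype, both dissected 4 months after tamoxifen. In these mice, Cre is expressed from Slc34a1, which encodes a renal phosphate transporter made by proximal tubule cells, and 3 tamoxifen injections at 1 month of age switched it on. Allograft tumors grew in NOD/scid hosts, which lack T and B cells, and were taken 6 weeks after Lats1-/-;Lats2-/- cells had been injected under the renal capsule. The hosts were 6 to 8 weeks old at injection. Whether the 3 allograft tumors stem from the same cell preparation was not given. The comparison cells were proximal tubule cells sorted from adult Slc34a1CreERT2;Lats1c/c;Lats2c/+;RosaTomato mice and called wild type in a label, although they carry Cre and conditional alleles of both kinases. Whether those alleles had been recombined in the sorted cells was not given. The tumors were whole tissue and the tubule cells were a sorted population, so a group difference here is also a difference in sampling. In whole tissue, fewer cells of a type and less RNA per cell cannot be told apart. The labels do not say whether replicates are separate animals, and the tests then measure only the spread between libraries, which may be technical.

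TGF-beta ligands are secreted as latent dimers held in the matrix and are released by integrins and proteases. The freed ligand binds the type II receptor Tgfbr2, which recruits and phosphorylates the type I receptor Tgfbr1. Tgfbr1 then phosphorylates Smad2 and Smad3, which enter the nucleus with Smad4 and change transcription. In the kidney the pathway is best known for matrix deposition and fibrosis, and in epithelial cells for growth arrest and loss of epithelial character.

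The promoters of Tgfbi, Ltbp2 and Inhba are shown because these members, like Tgfb3, were below 1 FPKM in every sorted tubule library and above it in every metastasis and allograft library. Each runs 5′ to 3′ from 250 bases before to 50 bases after the RefSeq start site in GRCm38.p6, and capitals mark the SMAD box CAGAC or its reverse complement GTCTG. The Tgfbi window is chr13:56609336-56609635 on the plus strand, the Ltbp2 window chr12:84876442-84876741 on the minus strand, and the Inhba window chr13:16011601-16011900 on the plus strand.
Tgfbi: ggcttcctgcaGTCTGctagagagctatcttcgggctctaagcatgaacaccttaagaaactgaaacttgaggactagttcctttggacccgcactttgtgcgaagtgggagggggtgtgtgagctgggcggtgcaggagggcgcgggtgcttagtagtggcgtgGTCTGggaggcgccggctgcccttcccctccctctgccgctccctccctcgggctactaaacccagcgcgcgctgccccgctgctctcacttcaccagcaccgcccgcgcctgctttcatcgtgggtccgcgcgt
Ltbp2: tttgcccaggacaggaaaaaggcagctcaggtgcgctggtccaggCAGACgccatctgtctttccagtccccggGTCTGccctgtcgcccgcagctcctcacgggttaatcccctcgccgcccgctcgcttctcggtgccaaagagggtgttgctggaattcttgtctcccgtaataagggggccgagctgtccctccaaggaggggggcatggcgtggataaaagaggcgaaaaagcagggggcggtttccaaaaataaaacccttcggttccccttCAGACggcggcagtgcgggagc
Inhba: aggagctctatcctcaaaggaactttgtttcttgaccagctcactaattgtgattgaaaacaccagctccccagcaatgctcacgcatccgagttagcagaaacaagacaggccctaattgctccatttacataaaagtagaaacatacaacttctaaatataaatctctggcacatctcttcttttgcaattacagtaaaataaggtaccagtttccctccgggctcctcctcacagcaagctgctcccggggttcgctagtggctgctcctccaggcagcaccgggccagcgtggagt

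The Tgfbi window holds GTCTG starting 239 and 85 bases before the start site. The Ltbp2 window holds CAGAC at -205 and +28 and GTCTG at -176, and the Inhba window holds neither. The box is common, with a match on either strand in 49.5% of 32544 distinct promoters. Windows for 7 of the 9 members were present, and those of Tgfb3 and Tgfbr3 were not used here. None of the 7 members had a match, on either strand, to the TEAD motif GGAATG, the AP-1 motif TGANTCA or the SMAD palindrome GTCTAGAC. These occur in 14.6%, 7.79% and 0.215% of promoters. TEAD factors are the DNA-binding partners of Yap and Taz, the coactivators that Lats1 and Lats2 restrain. A match is only a string of letters, and its absence from these windows says nothing of binding.

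Lats1 was at 12.3, 13.0 and 14.7 FPKM in primary tumors, 9.54, 10.4 and 10.7 in lung metastases, 5.60, 7.82 and 7.29 in allografts and 11.9, 12.7 and 12.8 in sorted tubule cells. Lats2 was at 19.5, 13.0 and 21.4 FPKM in primary tumors, 22.5, 19.9 and 22.4 in lung metastases, 12.2, 16.6 and 17.1 in allografts and 10.5, 10.7 and 11.0 in sorted cells. A gene-level value covers exons inside and outside a deleted stretch, and the deleted exons were not given, so these levels do not check the genotypes. Depth, estimated from the steps of low FPKM values, was about 11600000 to 18600000 fragments in the tumor libraries and 4940000 to 6370000 in the sorted cells. Tumor columns summed to between 1352270 and 2527750 FPKM, and sorted-cell columns to between 706093 and 738052. The gene annotated as the microRNA Mir6236 alone was listed at 317686 to 1082170 FPKM in the tumors and at no more than 57.2 FPKM in sorted cells. Which RNA these reads came from was not tested. Of the 3 primary tumors, 1 stood apart: Slc34a1 was at 6.17 FPKM in primary tumor 1, but at 833 and 166 FPKM in primary tumors 2 and 3, against 866 to 1040 FPKM in sorted cells. It was at most 1.37 FPKM in every metastasis and allograft library.

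In each tumor group most of the 9 genes were higher than in sorted tubule cells, and Tgfbi and Ltbp2 moved furthest. In primary tumors 7 of 9 rose, where 48.2% of all genes tested rose and 53.1% changed in either direction. In lung metastases 8 of 9 rose, against 54% of all genes, with 68.4% changed in either direction. In allograft tumors 8 of 9 rose, against 52.2% of all genes, with 69.1% changed in either direction. None of the 9 fell, where 4.9%, 14.4% and 16.9% of all genes did. Tgfb3, Tgfbi, Inhba and Ltbp2 were below 1 FPKM in every sorted library and passed the filter through the tumors alone. They had little room to fall, so their part in these counts is partly set by the filter. Every tumor library was above every sorted library for 9 of the 9 genes in primary tumors, and for 8 of 9 in metastases and in allografts, a pattern seen in 56.7%, 62.7% and 55.9% of all genes. These counts come from limma on log2(FPKM + 1), with Benjamini-Hochberg adjustment over all genes tested and a two-sided call at an adjusted p below 0.05.

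The 3 comparisons use the same sorted libraries, so they are not independent of each other. The median change of the 9 genes was 1.66, 2.82 and 2.49 on the log2 scale in primary tumors, metastases and allografts, beside 0.59, 0.68 and 0.66 for all genes. Setting every library to the same sum moved the all-gene medians to -0.29, -0.18 and -0.37, so part of each change depends on scaling. The tumor sums used there include Mir6236, which was nearly absent from sorted cells. The medians were 0.08, 0.20 and 0.19 with median-of-ratios scaling and 0.30, 0.33 and 0.13 without the 50 most abundant genes. Under quantile normalization they were -0.07, 0.01 and 0.05. With library rescaling to the same sum, 3, 7 and 6 of the 9 genes rose in primary tumors, metastases and allografts. Without primary tumor 1, 7 of the 9 still rose in primary tumors.

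**Figure D1:**
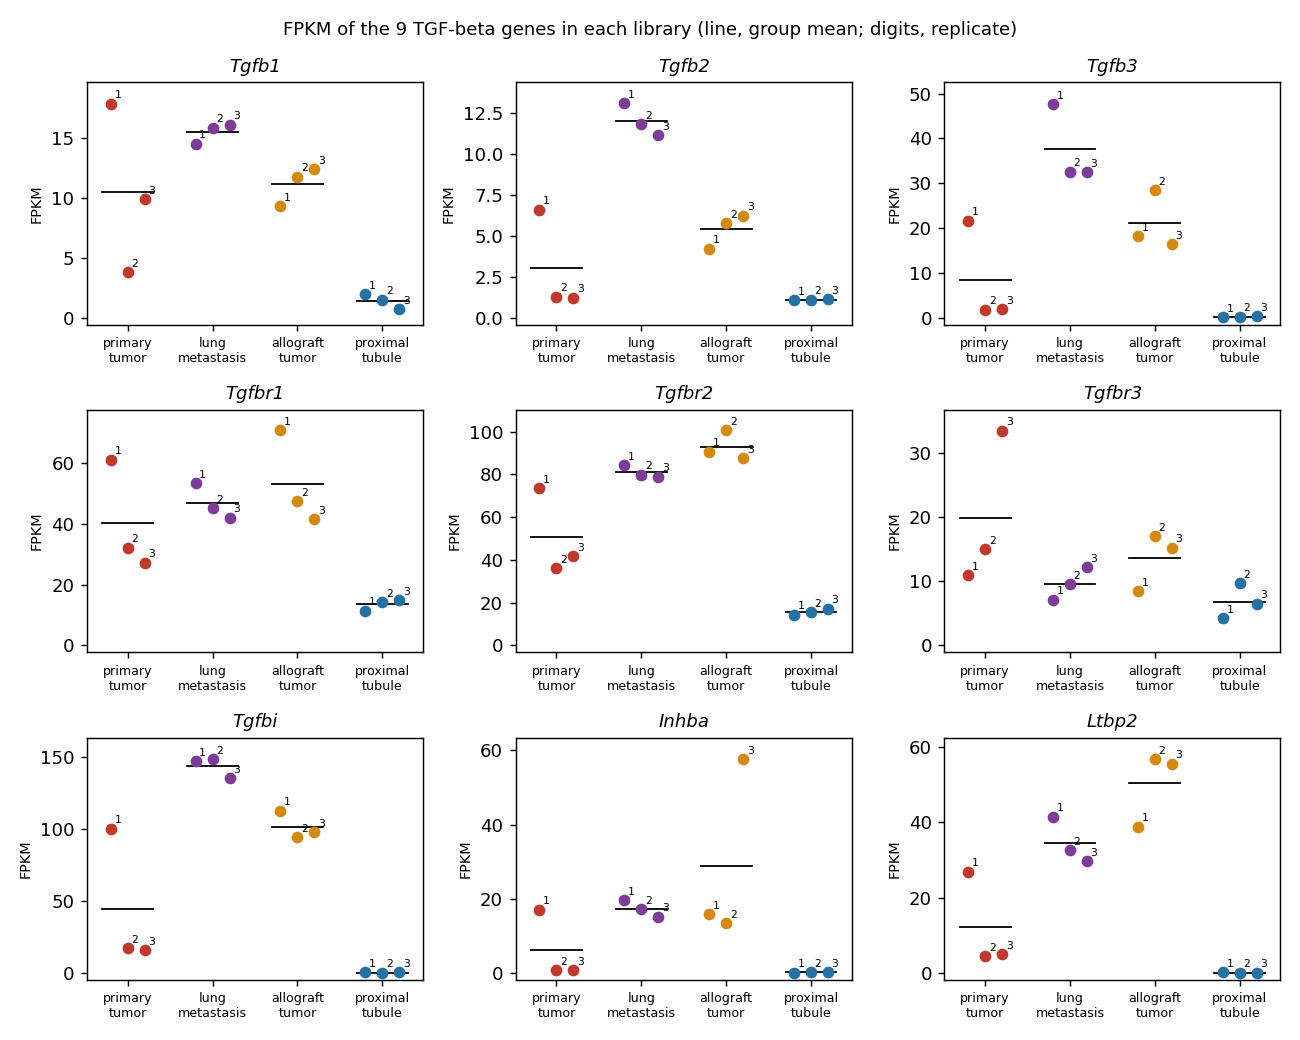
Level of each of the 9 genes in FPKM (vertical axes, linear, each with its own range) in every library of the 4 groups; points are libraries, digits the replicate and lines the group means. In 8 of the 9 panels primary tumor 1 lies above primary tumors 2 and 3, while in the Tgfbr3 panel it is the lowest primary tumor.

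Among the ligands, Tgfb3, an isoform known for its role in palate development, was the most abundant in metastases and allografts and the least abundant in sorted cells. It was at 21.7, 1.78 and 1.93 FPKM in primary tumors, 47.6, 32.6 and 32.5 in lung metastases, 18.2, 28.5 and 16.4 in allografts and 0.172, 0.222 and 0.431 in sorted cells. No tumor library overlapped the sorted cells, and primary tumor 1 lay among the allografts while the other two primary tumors lay far below. Tgfb3 rose by 2.16 ± 0.66 (log2 ± SE) in primary tumors (adjusted p = 0.0183), by 4.90 in metastases (adjusted p = 9.80e-05) and by 4.08 in allografts (adjusted p = 2.76e-04). The standard error of a gene is the same in every comparison, since the 4 groups were fitted together. Relative to the all-gene median these changes were 1.58, 4.22 and 3.42.

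The primary tumor call of Tgfb3 was lost with library rescaling (1.61, adjusted p = 0.0597), quantile normalization (1.09), a pseudocount of 5 (1.03), a fit of the compared groups alone and without sorted library 1 (2.11, adjusted p = 0.0502). The sorted-cell levels of Tgfb3 correspond to roughly 3, 5 and 8 fragments, so its fold over sorted cells is not given. The gene overlaps Ttll5 on the other strand, which was at 4.89 to 14.5 FPKM, and strandedness of the libraries was not given.

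Tgfb1, the isoform most studied in fibrosis and immune regulation, was at 17.9, 3.80 and 9.89 FPKM in primary tumors, 14.6, 15.9 and 16.1 in lung metastases, 9.34, 11.8 and 12.4 in allografts and 1.99, 1.52 and 0.709 in sorted cells. Every tumor library was above every sorted library. It rose by 2.09 ± 0.41 in primary tumors (adjusted p = 0.00191), by 2.82 in metastases (adjusted p = 1.63e-04) and by 2.37 in allografts (adjusted p = 4.40e-04). Under quantile normalization the primary tumor change was 1.02 with an adjusted p of 0.0810. Primary tumors spread from 3.80 to 17.9 FPKM, a wider range than that of the metastases and allografts together.

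Tgfb2, the isoform that depends most on the co-receptor Tgfbr3 for binding, was at 6.58, 1.29 and 1.21 FPKM in primary tumors, 13.1, 11.8 and 11.1 in lung metastases, 4.21, 5.76 and 6.22 in allografts and 1.06, 1.10 and 1.15 in sorted cells. Primary tumors 2 and 3 were thus near the sorted cells, and the metastases were the highest libraries. Tgfb2 rose by 2.62 ± 0.39 in metastases (adjusted p = 1.96e-04) and by 1.59 in allografts (adjusted p = 0.00418). The allograft call was lost with library rescaling (0.59) and quantile normalization (0.53). In primary tumors the change was 0.68 (adjusted p = 0.164), and it turned to -0.56 under quantile normalization.

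The share of each isoform in the 3 summed ligands is unaffected by any scaling that applies 1 factor to a whole library, though not by quantile normalization. Tgfb3 made up 47.0%, 25.9% and 14.8% of the summed ligand FPKM in primary tumors, 63.3%, 54.1% and 54.4% in lung metastases, 57.4%, 61.9% and 46.8% in allografts and 5.33%, 7.82% and 18.8% in sorted cells. The metastases and allografts did not overlap the sorted cells, whereas primary tumor 3 fell within their range, below sorted library 3 only. In sorted libraries 1, 2 and 3, Tgfb1 rested on roughly 25, 25 and 11 fragments and Tgfb3 on 3, 5 and 8. Shares in sorted cells are therefore rough. Tgfb2 took 9.31% to 19.6% of the sum in the 9 tumor libraries and 32.8% to 50.3% in sorted cells. Tgfb1 was the largest share in primary tumors 2 and 3, at 55.3% and 75.9%. The summed ligands came to 6.87 to 46.1 FPKM in primary tumors, 59.7 to 75.3 in metastases, 31.8 to 46.1 in allografts and 2.29 to 3.22 in sorted cells. These shares are described without a test.

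**Figure D2:**
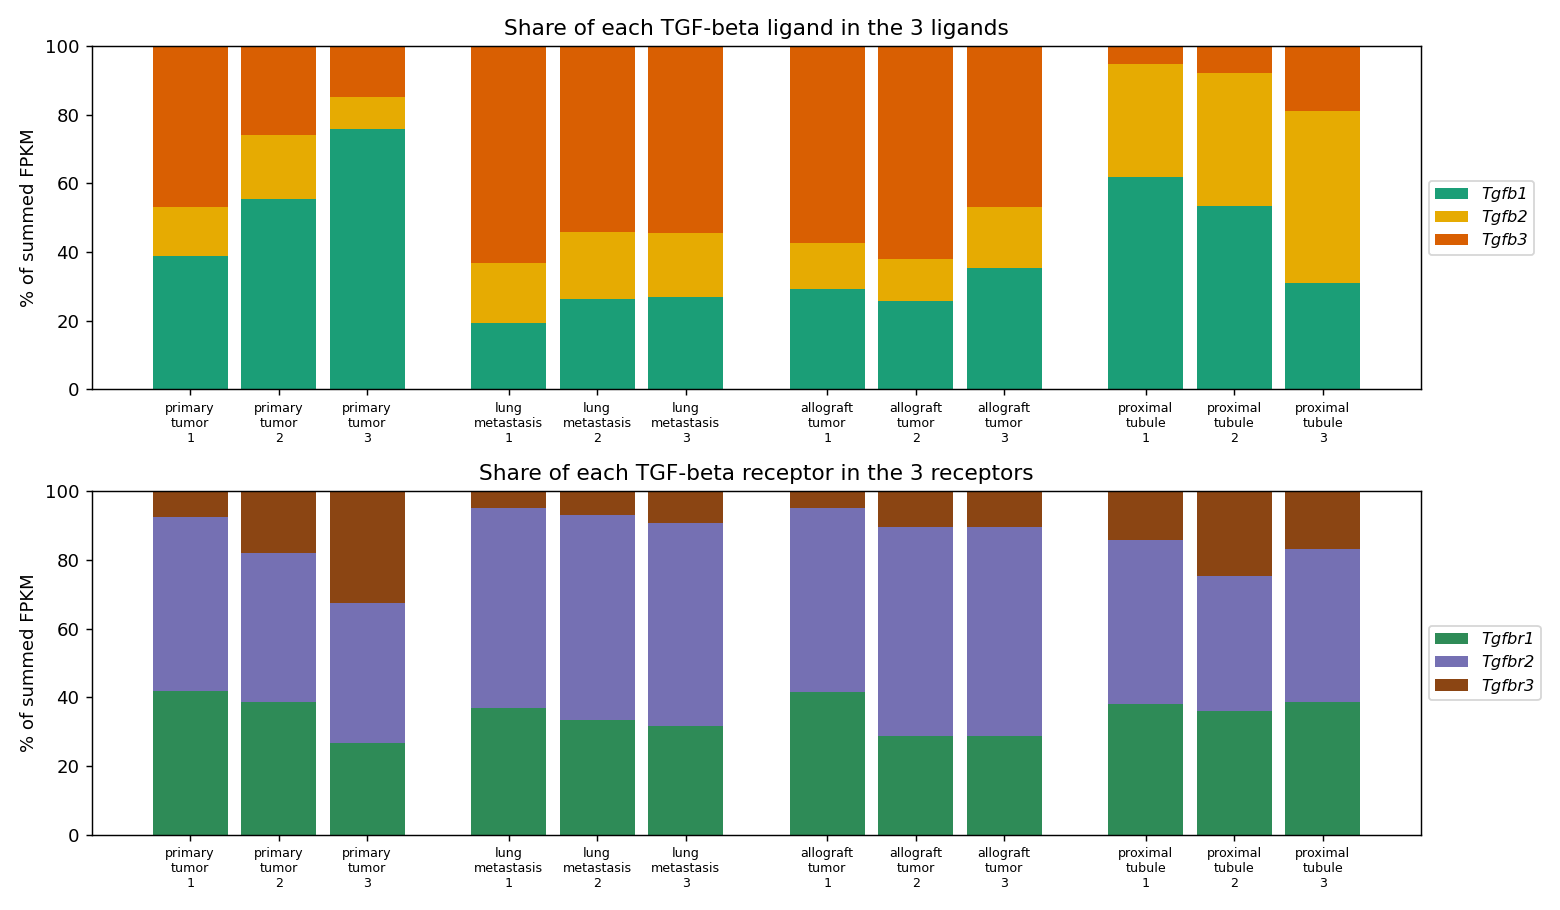
Percent of the summed FPKM of the 3 ligands (top) and of the 3 receptors (bottom) taken by each gene, 1 bar a library. Tgfb3 takes 46.8% to 63.3% of the ligand bars in metastases and allografts and 5.33% to 18.8% in sorted tubule cells, and Tgfbr2 takes 53.4% to 61.0% of the receptor bars in metastases and allografts.

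The signaling receptors Tgfbr1 and Tgfbr2 were above 10 FPKM already in sorted cells, and were higher in each tumor group. Tgfbr2, the type II receptor, was at 73.6, 36.2 and 41.8 FPKM in primary tumors, 84.5, 79.9 and 78.9 in lung metastases, 90.7, 100.6 and 87.7 in allografts and 14.4, 15.6 and 17.2 in sorted cells. No tumor library overlapped the sorted cells, and the allograft libraries were all above the metastases. Tgfbr2 rose by 1.56 ± 0.23 in primary tumors (adjusted p = 3.35e-04), by 2.30 in metastases (adjusted p = 1.51e-05) and by 2.49 in allografts (adjusted p = 9.70e-06). The primary tumor call was lost with library rescaling (0.49, adjusted p = 0.218).

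Tgfbr1, the type I receptor that phosphorylates Smad2 and Smad3, was at 60.9, 32.1 and 27.2 FPKM in primary tumors, 53.2, 45.0 and 42.0 in lung metastases, 70.7, 47.4 and 41.4 in allografts and 11.4, 14.3 and 14.9 in sorted cells. The tumor groups overlapped each other and none overlapped the sorted cells. It rose by 1.42 ± 0.29 in primary tumors (adjusted p = 0.0025), by 1.72 in metastases (adjusted p = 4.45e-04) and by 1.87 in allografts (adjusted p = 2.26e-04). With library rescaling these changes were 0.36, 0.69 and 0.50, and none was called.

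Tgfbr3, or betaglycan, a co-receptor without kinase activity that presents ligand to Tgfbr2, had another order. It was at 10.9, 15.0 and 33.4 FPKM in primary tumors, 7.12, 9.49 and 12.2 in lung metastases, 8.40, 17.0 and 15.2 in allografts and 4.28, 9.72 and 6.51 in sorted cells. Primary tumor 3 was its highest library and primary tumor 1 the lowest of the primary tumors, whereas primary tumor 1 was the highest of its group for the other 8 genes. It rose by 1.32 ± 0.42 in primary tumors (adjusted p = 0.0222), a call that was lost under each of 5 other scalings (0.31 to 0.99) and without primary tumor 3 (0.88). In metastases and allografts the changes were 0.47 (adjusted p = 0.334) and 0.90 (adjusted p = 0.0766). With library rescaling these turned to -0.47 and -0.36, and the metastasis change was also below 0 under median-of-ratios scaling of all genes or of protein-coding genes, and under quantile normalization.

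Within a library, Tgfbr2 exceeded Tgfbr1 throughout. The ratio of Tgfbr2 to Tgfbr1 was 1.21, 1.13 and 1.54 in primary tumors, 1.59, 1.78 and 1.88 in lung metastases, 1.28, 2.12 and 2.12 in allografts and 1.26, 1.09 and 1.16 in sorted cells. Tgfbr3 took 7.49%, 18.0% and 32.6% of the summed receptors in primary tumors, 4.92% to 9.16% in metastases, 4.95% to 10.5% in allografts and 14.2% to 24.6% in sorted cells. The ratio of summed ligands to summed receptors was 0.317, 0.0825 and 0.127 in primary tumors, 0.449 to 0.520 in metastases, 0.187 to 0.279 in allografts and 0.0594 to 0.107 in sorted cells. Metastases were above every other library on this ratio.

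The 3 responder and matrix genes were below 1 FPKM in every sorted library. Tgfbi, a secreted matrix protein first cloned as a TGF-beta-induced transcript, was at 100.3, 17.2 and 16.0 FPKM in primary tumors, 147, 149 and 136 in lung metastases, 113, 94.5 and 97.8 in allografts and 0.520, 0.115 and 0.497 in sorted cells. It was the most abundant member in every metastasis library and had the largest change of the 9 in each tumor group against sorted cells. Tgfbi rose by 4.53 ± 0.54 in primary tumors (adjusted p = 1.17e-04), by 6.73 in metastases (adjusted p = 5.08e-06) and by 6.23 in allografts (adjusted p = 8.18e-06). Without primary tumor 1 the primary tumor change was 3.69.

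Ltbp2, a matrix protein of the latent TGF-beta binding family that does not itself bind the latent complex covalently, was at 26.9, 4.48 and 5.07 FPKM in primary tumors, 41.4, 32.5 and 29.6 in lung metastases, 38.8, 56.6 and 55.4 in allografts and 0.247, 0.0417 and 0.0674 in sorted cells. No tumor library overlapped the sorted cells, and primary tumors 2 and 3 were the lowest tumors. It rose by 3.13 ± 0.50 in primary tumors (adjusted p = 6.33e-04), by 4.98 in metastases (adjusted p = 1.84e-05) and by 5.50 in allografts (adjusted p = 1.05e-05). Its antisense partner D030025P21Rik was at 0 in sorted cells and at up to 2.35 FPKM in tumors. Where the pair shares sequence, reads cannot be told apart without strand, and whether their exons overlap was not examined.

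Inhba, which encodes the activin A subunit and whose product signals through Smad2 and Smad3 by way of its own receptors, was at 17.1, 0.702 and 0.757 FPKM in primary tumors, 19.7, 17.2 and 15.1 in lung metastases, 15.9, 13.4 and 57.6 in allografts and 0.140, 0.217 and 0.235 in sorted cells. Only primary tumor 1 of its group passed 1 FPKM, and allograft tumor 3 was far above the other allografts. Inhba rose by 3.93 ± 0.82 in metastases (adjusted p = 0.00155) and by 4.34 in allografts (adjusted p = 7.74e-04). In primary tumors its change was 1.66 (adjusted p = 0.109), and 0.53 without primary tumor 1. Tgfbi, Ltbp2 and Inhba each rested on roughly 2 to 9 fragments in every sorted library, so folds over those cells are not given. Tgfb3, Tgfbi, Inhba and Ltbp2 passed the expression filter through the tumors alone.

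**Figure D3:**
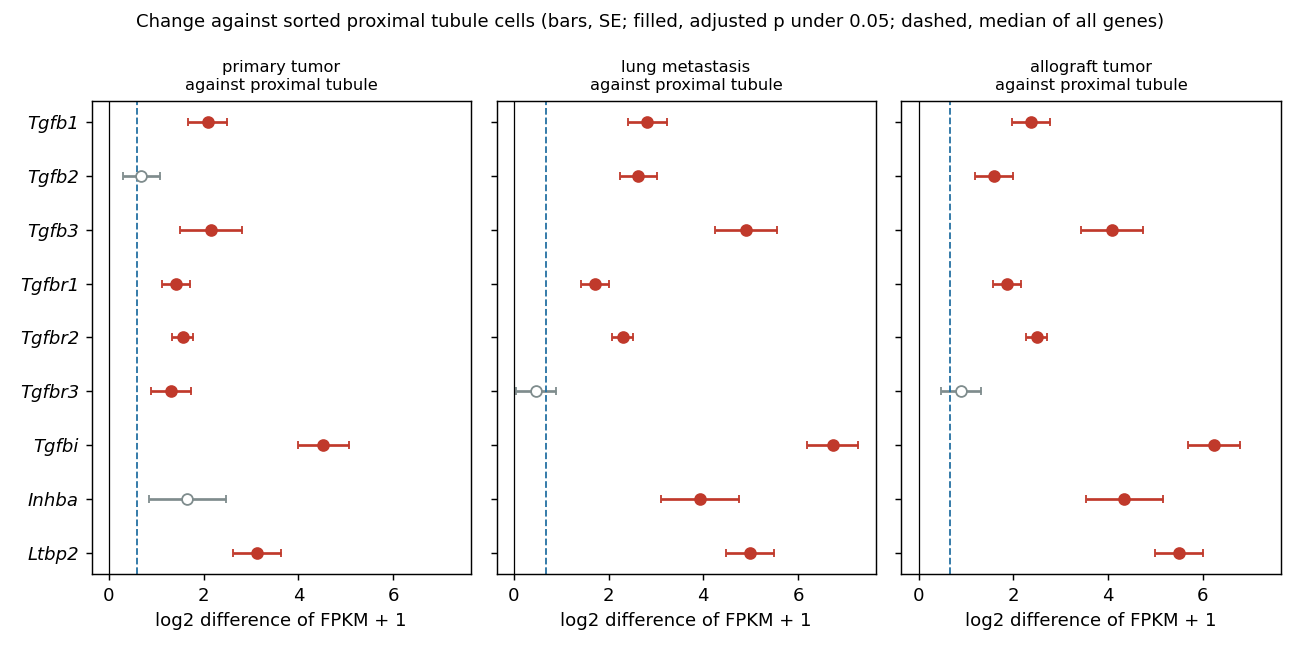
Difference in log2(FPKM + 1) of primary tumors, lung metastases and allograft tumors from sorted proximal tubule cells for each of the 9 genes, with standard errors; filled points are called and dashed lines mark the all-gene medians of 0.59, 0.68 and 0.66. Tgfbi is furthest to the right in each panel, at 4.53, 6.73 and 6.23.

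Markers of other cell types also differed from sorted cells, though not every list rose in every tumor group. All 8 fibroblast markers rose in each tumor group, and their summed level was 156 to 870 FPKM in primary tumors, 373 to 498 in metastases, 882 to 2280 in allografts and 3.10 to 5.17 in sorted cells. With library rescaling 7 of them rose in primary tumors and 8 in the other tumor groups. All 8 macrophage markers rose too, 7, 7 and 8 of them with library rescaling, and their sum was 214 to 1618, 984 to 1406 and 1147 to 4307 FPKM in primary tumors, metastases and allografts, against 6.18 to 7.20 FPKM in sorted cells. The 8 endothelial markers summed to 213 to 272, 319 to 529 and 77.3 to 148 FPKM in the same tumor groups, against 51.4 to 79.2 FPKM in sorted cells. Of those 8, all rose in primary tumors and metastases and 2 in allografts, whereas with library rescaling 2 and 4 rose in primary tumors and metastases and 4 fell in allografts. All 8 T and B lymphocyte markers rose in primary tumors and metastases and 2 in allografts, with sums of 88.9 to 328, 113 to 200.2 and 8.39 to 58.2 FPKM, against 0.563 to 1.37 FPKM in sorted cells. The fibroblast marker Dpt, the macrophage marker Cd163 and the lymphocyte markers Cd3g, Ms4a1 and Ighm were at 0 in all sorted libraries. Mesothelial markers summed to 25.1 to 68.8, 158 to 180 and 164 to 461 FPKM in the 3 tumor groups, against 0.703 to 1.13 FPKM in sorted cells, and 3, 5 and 4 of the 6 rose. Krt19 alone made up most of the mesothelial sum in primary tumors and metastases, at 17.2 to 61.7 and 135 to 153 FPKM. In allografts it was at 66.7 to 140 FPKM. All 8 lung epithelium markers rose in metastases against sorted cells, 2 did in primary tumors and 3 in allografts. The part of these cells in the rise of the 9 genes was not tested.

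Between tumor groups, 5 of the 9 genes were higher in lung metastases than in primary tumors, calls that were lost without primary tumors 2 and 3. The 5 are Tgfb2, Tgfb3, Tgfbr2, Tgfbi and Ltbp2, where 11.3% of all genes rose, 9.59% fell and 20.9% changed in either direction. Tgfb2 rose by 1.94 (adjusted p = 0.00752), Tgfb3 by 2.74 (adjusted p = 0.0169), Tgfbi by 2.20 (adjusted p = 0.0193), Ltbp2 by 1.85 (adjusted p = 0.0289) and Tgfbr2 by 0.74 (adjusted p = 0.0421). For the same 5 genes every metastasis was above every primary tumor, as for 21.9% of all genes. Inhba was 2.27 higher without passing (adjusted p = 0.072), and Tgfb1, Tgfbr1 and Tgfbr3 were at 0.73, 0.30 and -0.85 (adjusted p = 0.226, 0.498 and 0.170). The median over the 9 genes was 1.85, beside 0.0065 over all genes.

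For Tgfb2, Tgfb3, Tgfbr2, Tgfbi and Ltbp2, primary tumor 1 lay below every metastasis, though nearer to them than primary tumors 2 and 3. Primary tumor 1 lay within the metastasis range for Inhba and Tgfbr3 and above it for Tgfb1 and Tgfbr1. Its level exceeded that of primary tumors 2 and 3 by 12.2 and 11.2 times for Tgfb3, 24.3 and 22.5 times for Inhba, 5.84 and 6.29 times for Tgfbi, 6.00 and 5.30 times for Ltbp2, and 5.10 and 5.42 times for Tgfb2. When primary tumors 2 and 3 were left out, the metastasis changes were 0.77 for Tgfb2, 0.75 for Tgfb3, 0.51 for Tgfbi, 0.34 for Ltbp2 and 0.14 for Tgfbr2, and none of the 9 genes was called. With primary tumor 1 left out instead, 8 of the 9 were called, 7 of them higher and Tgfbr3 lower (-1.17, adjusted p = 0.0495). When only these 2 groups were fitted, 0 of the 9 were called. Calls over all genes moved too, from 3414 in the main fit to between 1162 and 6215 when each library was left out in turn. With only the 2 groups fitted, fewer genes were called in all. The gain and loss of calls was thus not particular to the 9 genes. The Tgfbr2 call was also lost with library rescaling, without the 50 most abundant genes and under quantile normalization. Leaving out any of the other metastasis or primary tumor libraries also ended calls, down to 1 of 9. The Tgfbr2 call was lost as well without allograft tumor 1 or 2 or any sorted library.

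The proximal tubule markers moved with this split. Their sum was 156 to 3702 FPKM in primary tumors and 175 to 221 FPKM in metastases, against 4842 to 5767 FPKM in sorted cells. In metastases most of that sum was Aqp1, at 180, 141 and 153 FPKM, and 6 of the 8 markers were lower than in primary tumors. Miox, the most abundant marker of the list, was at 5.82, 1188 and 253 FPKM in primary tumors 1, 2 and 3. It was at no more than 0.0721 FPKM in metastases. The fibroblast marker Col3a1 was at 440, 33.3 and 56.2 FPKM and the macrophage marker C1qa at 411, 55.4 and 55.1 FPKM in primary tumors 1, 2 and 3. Not every fibroblast marker was highest in primary tumor 1. Against primary tumors, 1 of 8 fibroblast markers was higher in metastases and 1 lower, and 1 of 8 macrophage markers was higher. Lung epithelium markers summed to 12087 to 19252 FPKM in metastases and 8.07 to 15.3 FPKM in primary tumors, and all 8 were higher. The part of these tissues in the differences was not tested.

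In allograft tumors 5 of the 9 genes were higher than in primary tumors, where 20.5% of all genes rose, 21.1% fell and 41.6% changed in either direction. Ltbp2 rose by 2.37 (adjusted p = 0.00434), Tgfbr2 by 0.93 (adjusted p = 0.0081), Inhba by 2.68 (adjusted p = 0.0235), Tgfbi by 1.70 (adjusted p = 0.0289) and Tgfb3 by 1.91 (adjusted p = 0.0384). For 2 of the 9 genes, Tgfbr2 and Ltbp2, the allografts lay entirely above the primary tumors, as for 21.2% of all genes. Tgfb2 was 0.91 higher (adjusted p = 0.0869), and Tgfb1, Tgfbr1 and Tgfbr3 were at 0.28, 0.45 and -0.42 (adjusted p = 0.608, 0.241 and 0.449). Under library rescaling 2 of the 9 were called, and 0 when only these 2 groups were fitted or when primary tumors 2 and 3 were left out. In that last case Tgfb3 turned to -0.079, and Tgfbi was at 0.02. The Inhba call was also lost without allograft tumor 3 (2.04, adjusted p = 0.0802) or without primary tumor 2 or 3. The Tgfbi call was lost without any 1 of the allografts or without primary tumor 2 or 3, and so was the Tgfb3 call. The Tgfb3 call was lost too without any sorted library, without metastasis 2 or 3 and with no filter on low values. Those of Tgfbr2 and Ltbp2 held whichever library was left out. Over all genes, 6784 were called in the main fit and 4905 to 7947 when each library was left out in turn. The median over the 9 genes was 0.93, beside -0.023 over all genes. All 8 proximal tubule markers were lower in allografts, with sums of 37.5 to 108 FPKM against 156 to 3702 FPKM in primary tumors, and all 8 lymphocyte markers were lower. Of the fibroblast markers 5 of 8 were higher and 1 lower, with sums of 882 to 2280 FPKM in allografts and 156 to 870 FPKM in primary tumors. Of the macrophage markers 5 of 8 were higher, and of the endothelial markers 4 of 8 were lower. The part of these cells in the differences was not tested.

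Between allografts and metastases no member passed the test in limma, where 10.4% of all genes rose, 13.3% fell and 23.7% changed in either direction. At an unadjusted p below 0.05, 1 of 9 passed, Tgfb2, which was 1.03 lower in allografts (adjusted p = 0.0834). The allograft libraries lay wholly below the metastases for Tgfb1 (-0.45), Tgfb2, Tgfb3 (-0.82) and Tgfbi (-0.50) and wholly above them for Tgfbr2 (0.19). Such separation downward held for 23.6% of all genes and upward for 24.8%. The Tgfbr2 change turned to -0.16 with library rescaling and to -0.071 without the 50 most abundant genes. When primary tumor 1 was left out of the joint fit, 3 of the 9 genes were called, all lower. Over all genes, 3872 were called in the main fit and 1944 to 4856 when each library was left out in turn. The gain was therefore not read as a result about the 9 genes. The median over the 9 genes was 0.15, beside 0.025 over all genes.

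**Figure D4:**
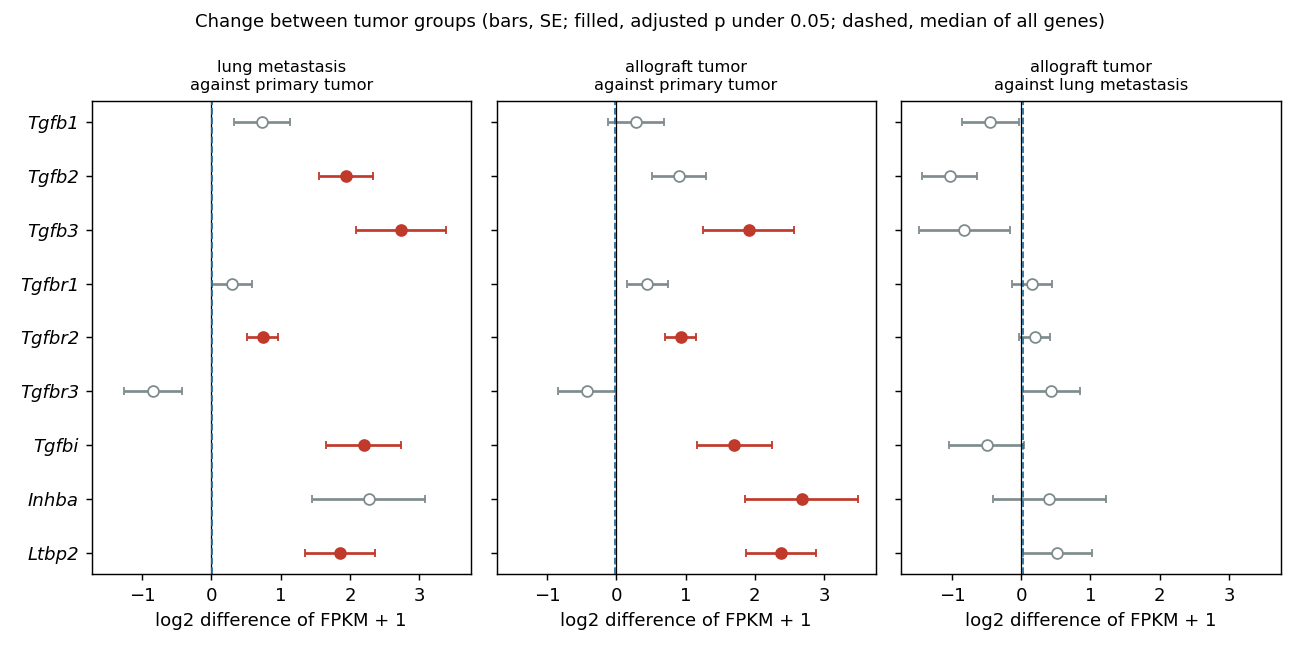
Difference in log2(FPKM + 1) between tumor groups for each of the 9 genes, with standard errors; filled points are called and dashed lines mark the all-gene medians. Tgfb3 (2.74) is furthest right for metastases against primary tumors, Inhba (2.68) for allografts against primary tumors, and no point is filled for allografts against metastases.

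The 9 genes fell into 3 orders of group means. For Tgfb1, Tgfb2, Tgfb3 and Tgfbi the group means ran from metastases through allografts and primary tumors to sorted cells. For Tgfbr1, Tgfbr2, Inhba and Ltbp2 they ran from allografts through metastases and primary tumors to sorted cells. Tgfbr3 ran from primary tumors through allografts and metastases to sorted cells. Neighbours that did not pass the test were allografts and metastases for all 9 genes, allografts and primary tumors for Tgfb1, Tgfb2 and Tgfbr3, and metastases and primary tumors for Tgfbr1 and Inhba. For Tgfb2 and Inhba the primary tumors and sorted cells did not pass either, nor did metastases and sorted cells for Tgfbr3.

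A list of 47 other genes of the pathway gives the surroundings of the 9, and all 47 were expressed above the filter. In primary tumors 33 rose and 1 fell against sorted cells, in metastases 36 rose and 3 fell, and in allografts 31 rose and 6 fell. Over all genes 48.2%, 54% and 52.2% rose in the 3 groups and 4.9%, 14.4% and 16.9% fell. With library rescaling these splits were 12 up and 11 down, 23 up and 7 down, and 20 up and 14 down. The median change of the 47 was 1.14 in primary tumors, 1.43 in metastases and 1.46 in allografts, where all genes had medians of 0.59, 0.68 and 0.66.

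Most target genes rose, 9 of 13 in primary tumors, 12 of 13 in metastases and 11 of 13 in allografts. The 1 that fell in allografts was Id1, a target of the related BMP branch that TGF-beta can repress. With library rescaling 8, 10 and 10 of the 13 rose and 1, 0 and 1 fell. Postn, a matrix protein of activated stroma, was at 193, 1.94 and 6.37 FPKM in primary tumors, 310, 149.9 and 183 in metastases and 1022, 407 and 739.8 in allografts, and at no more than 0.0683 FPKM in sorted cells. Col1a1, a collagen chain, rose by 4.37 ± 0.57 in primary tumors (adjusted p = 1.75e-04). Timp1, a metalloproteinase inhibitor, was at 82.3, 3.44 and 2.96 FPKM in primary tumors and 103.5, 196 and 126 FPKM in allografts, and rose by 3.60 in allografts against primary tumors (adjusted p = 0.0105). Postn and Timp1 shared with 8 of the 9 members the high level of primary tumor 1 within its group.

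Genes of latency and activation were split. In primary tumors 7 of 10 rose and 1 fell, in metastases 7 rose and 2 fell, and in allografts 6 rose and 2 fell. With library rescaling 2, 5 and 4 rose and 3 fell in each group. Itgb8, a subunit of an integrin that releases active ligand from latent Tgfb1 and Tgfb3, was at 17.3, 55.2 and 27.5 FPKM in primary tumors, 2.08, 1.92 and 1.98 in lung metastases, 3.14, 5.40 and 3.22 in allografts and 94.2, 105 and 118 in sorted cells. It fell by 1.79, 5.15 and 4.46 on the log2 scale in primary tumors, metastases and allografts (adjusted p = 0.00166, 1.68e-06 and 4.80e-06). Itgb6, a subunit of the epithelial integrin with the same activity, was at 41.3, 58.6 and 35.9 FPKM in primary tumors, 28.0, 31.6 and 25.2 in lung metastases, 1.09, 3.46 and 1.49 in allografts and 73.1, 63.6 and 68.2 in sorted cells. Itgb6 fell by 1.25 in metastases (adjusted p = 0.00204) and by 4.60 in allografts (adjusted p = 1.47e-06) against sorted cells, and by 3.35 in allografts against metastases (adjusted p = 1.98e-05). Ltbp1, which tethers latent ligand to the matrix, was at 35.2, 32.8 and 49.5 FPKM in allografts, against 13.3, 15.5 and 17.1 FPKM in metastases, and rose by 1.29 (adjusted p = 0.0109).

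All 5 related ligands and antagonists rose in each tumor group against sorted cells, and 1, 4 and 4 did with library rescaling. Fst, whose product follistatin binds and neutralizes activin, was at 34.4, 1.43 and 3.97 FPKM in primary tumors, 98.5, 74.2 and 61.3 in lung metastases, 30.4, 26.9 and 12.5 in allografts and 0.623, 0.509 and 0.365 in sorted cells. It rose by 3.36 ± 0.77 in metastases against primary tumors (adjusted p = 0.0140). Of 6 other receptors and co-receptors, 3 rose in primary tumors, 3 rose and 1 fell in metastases, and 2 rose and 2 fell in allografts. With library rescaling 1, 1 and 0 of the 6 rose and 2, 2 and 5 fell. Acvr2b, an activin type II receptor, fell by 0.85 in metastases against primary tumors (adjusted p = 0.0356). The list of 4 SMAD factors held Smad2, Smad3, Smad4 and Zfyve9, and 2 of them rose in each tumor group against sorted cells. The 1 that fell in allografts was Zfyve9, at 7.84, 7.23 and 10.2 FPKM against 14.3, 11.4 and 12.2 in sorted cells. The medians of the 4 were 0.33, 0.31 and 0.33, below the all-gene medians. With library rescaling none of the 4 rose and 2, 2 and 3 fell. Of 9 intracellular inhibitors, 7 rose in primary tumors, 7 in metastases and 5 in allografts. With library rescaling 0, 3 and 2 of these rose and 3, 0 and 2 fell. The direction of the inhibitors in primary tumors thus differed between the main fit and library rescaling. So did that of the SMAD factors in each tumor group. The tumor sums used in library rescaling include Mir6236.

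Between tumor groups, 9 of the 47 rose and 3 fell in metastases against primary tumors, 17 rose and 12 fell in allografts against primary tumors, and 5 rose and 8 fell in allografts against metastases. Over all genes 20.9%, 41.6% and 23.7% were called in these comparisons, so the 12 of 47 and the 13 of 47 called in the first and the last are near the background. Without primary tumors 2 and 3 the count called fell to 3 for metastases and 9 for allografts, each against primary tumors, and rose to 20 between allografts and metastases. Cdkn2b, a cell-cycle inhibitor induced by TGF-beta in epithelia, was at 40.0, 17.8 and 28.8 FPKM in allografts and 10.6, 9.14 and 8.79 FPKM in metastases, a rise of 1.44 (adjusted p = 0.0104). Id1, a target of the related BMP branch that TGF-beta can repress, was at 5.65, 11.2 and 6.87 FPKM in allografts and 41.2, 46.0 and 47.3 FPKM in metastases, and fell by 2.41 (adjusted p = 2.29e-04). Endothelial markers, 7 of 8, also fell in allografts against metastases, and their part in these differences was not tested.

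**Figure D5:**
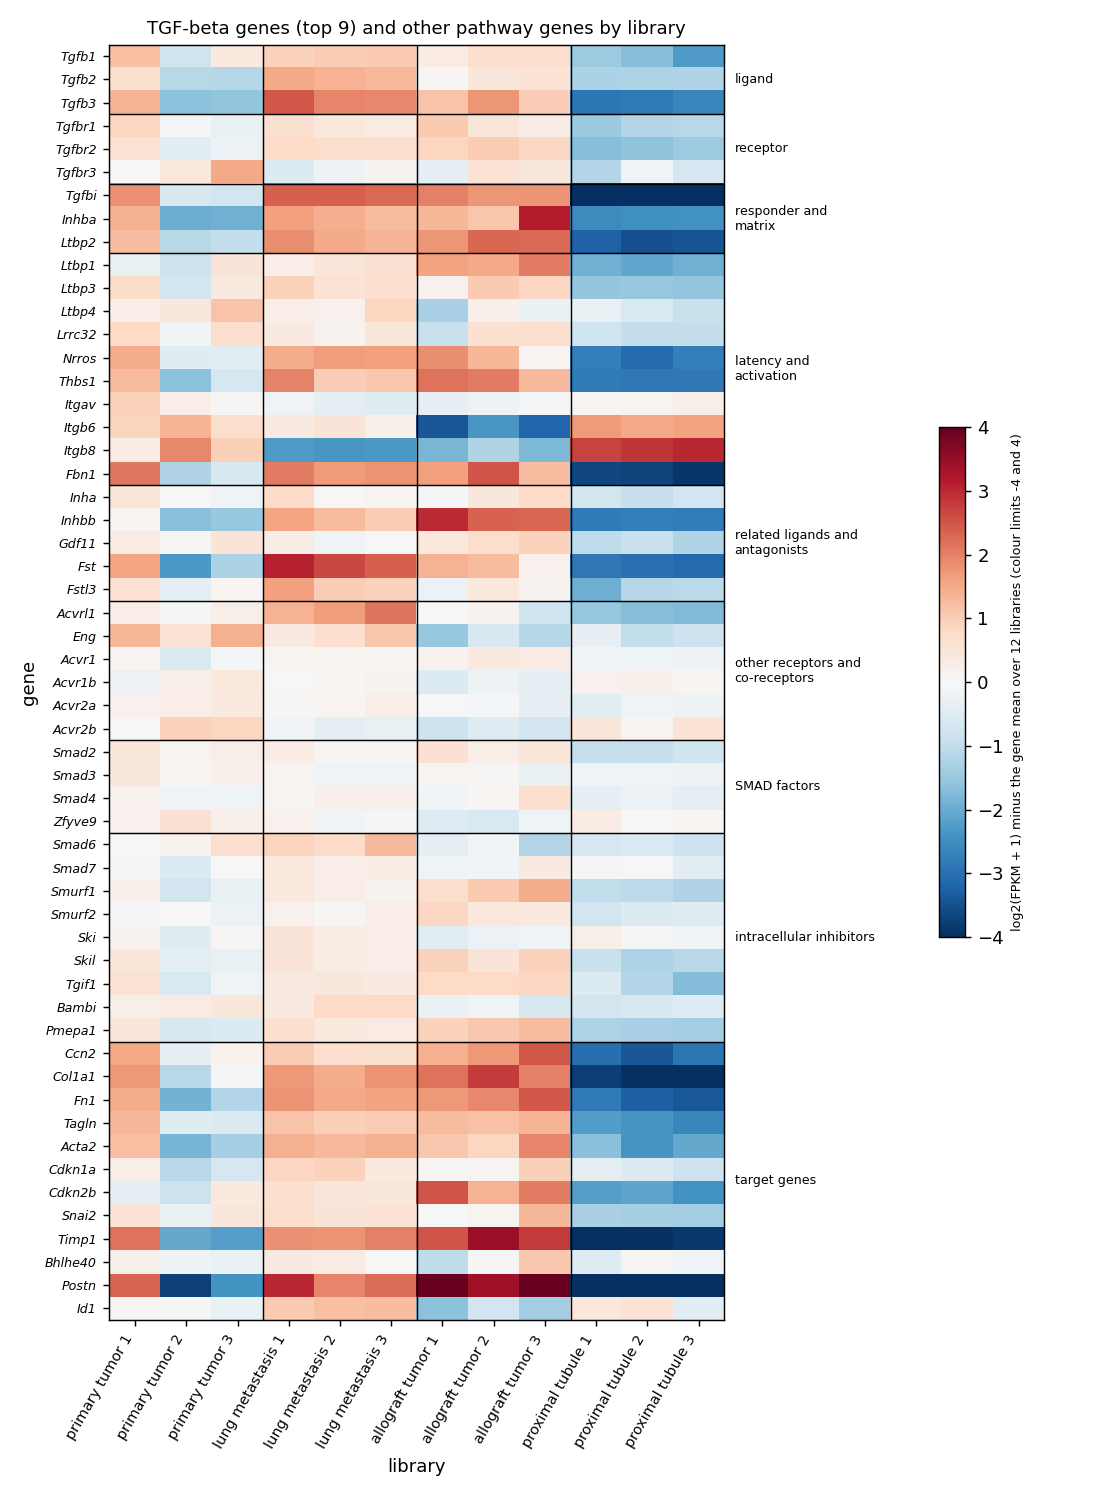
Heat map of log2(FPKM + 1) minus each gene's mean over the 12 libraries (colour, limits -4 and 4) for the 9 genes at the top and other genes of the pathway list below, grouped by role, with 1 column a library. Itgb8 is red in the 3 sorted tubule columns, and Tgfbi, Ltbp2 and Postn are blue there.

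Likeness of profiles was measured as the root mean square distance between log2(FPKM + 1) profiles, each centred and divided by its SD over the 12 libraries, so that 0 means identical shape. Among the 9 genes, Tgfbr2 and Ltbp2 were closest, at 0.112, followed by Tgfbr2 and Tgfbi at 0.165. Tgfbr3 was 1.04 or more from each of the others. Among 14240 candidate genes, the nearest to Tgfbi were Plekho2 (0.0792) and Itpripl2 (0.0858), to Ltbp2 Ppp1r18 (0.0828) and Anxa3 (0.0997), and to Tgfbr2 Efemp2 (0.0911) and Cxcl14 (0.0916). The nearest to Tgfb3 were Fkbp10 (0.133), a collagen-folding factor, and Dpep2 (0.147), and to Tgfb2 Jph2 (0.156) and Cnn1 (0.168), a smooth muscle calponin. Inhba was nearest to Arhgap11a (0.109) and Anln (0.149), both known for roles in cell division. Tgfb1 was nearest to Prdm15 (0.126) and Mdfi (0.160), and Tgfbr1 to Tifab (0.134) and Mob1a (0.146), an adaptor of the Lats kinases. Tgfbr3 had no close neighbour, the nearest being Ampd3 at 0.441 and Zfp438 at 0.474. All these genes share the same 12 libraries, so likeness is a description.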

How the data were processed

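Bulk RNA was sequenced from 12 libraries. The values are gene-level FPKM in 1 table deposited by the authors. The submitters' processing notes name bcl2fastq 2.17.1.14, Salmon and the builds GRCm38 and mm10, with no role or order. The annotation and strandedness were not given in the sources used here. Of 24432 identifiers, 24222 were in GENCODE M21 and 24189 had a symbol, and no column was left unused.

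Genes with at least 1 FPKM in at least 3 libraries were tested with limma 3.58.1 in R 4.3.3, with trended empirical Bayes on log2(FPKM + 1). This scale understates changes of low genes. The 4 groups were fitted together, 6 comparisons were made, and Benjamini-Hochberg adjustment ran over all genes tested, with calls below 0.05. The script was tested on simulated data. Depth was estimated from the steps of FPKM values of single-transcript genes. Of these low values, 49.2% to 60.1% lay within 0.1 of a whole step, so depth and fragment numbers are rough, and reads were not recovered. Promoters come from RefSeq (GRCm38.p6).

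The members and gene lists were chosen with earlier results of these data known. Named are the 9 members and, per comparison, the 2 other pathway genes with the largest rise and the 2 with the largest fall among those called. Of the pathway list, 1 gene enters the counts and is not reported here by name or in the heat map. Of each marker list, the most abundant gene could be named, and Slc34a1, and for each member the 2 nearest profiles. Aqp1 and the markers at 0 in all sorted libraries are named besides. Replicate numbers were checked for pairing: over 18 same-numbered pairs, deviations from group means correlated between -0.043 and 0.098, so the block was not used. The alternatives changed the pseudocount, filter, scaling, weights, variance model, groups fitted, replicate block and libraries left out.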

Additional observations from a re-analysis of the deposited data

How the results depend on the processing

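Across 26 alternatives and 54 member changes, 1251 of 1404 values kept their direction and side of the threshold, 97 lost a call, 32 gained one and 24 reversed. Alternatives in the filter, variance model, groups fitted or replicate block left the estimates themselves as they were. So did leaving out a library of a group not compared. Such fits could move a call but not a direction, so the total does not measure how stable the directions are. The main limits are library composition, which scalings handle differently, and the spread of the primary tumors; the low depth of the sorted libraries limits the 4 members near 0 there.

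The counts of members called moved as follows. In primary tumors against sorted cells, 7 became 3 with library rescaling (TPM) and 4 with quantile normalization. In metastases against primary tumors, 5 became 9 with array weights, of which Tgfbr3 was lower (-1.53), and 0 when only the compared groups were fitted or without primary tumors 2 and 3. In allografts against primary tumors, 5 became 2 with library rescaling or without the 50 most abundant genes, 3 with quantile normalization, and 0 when only the compared groups were fitted or without primary tumors 2 and 3. In allografts against metastases, 0 became 1 with a pseudocount of 5, 2 with array weights or only the compared groups, and 3 without primary tumors 2 and 3. Leaving out each library in turn gave 5 to 8 members for primary tumors, 8 for metastases and 8 to 9 for allografts against sorted cells, 1 to 8 for metastases and 2 to 7 for allografts against primary tumors, and 0 to 3 for allografts against metastases. The fit with array weights estimates a weight per library from these same data.

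The 47 other pathway genes called moved as follows. In primary tumors against sorted cells, 34 became 17 with quantile normalization. In metastases against primary tumors, 12 became 6 with library rescaling, 30 with array weights, and 3 with only the compared groups or without primary tumors 2 and 3. In allografts against primary tumors, 29 became 19 with library rescaling, 11 with only the compared groups and 9 without primary tumors 2 and 3. In allografts against metastases, 13 became 23 with array weights and 20 without primary tumors 2 and 3. Leaving out each library gave 28 to 36, 34 to 41 and 32 to 37 against sorted cells, 4 to 24 and 18 to 33 against primary tumors, and 8 to 19 for allografts against metastases.

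Over all genes, 3414 called in metastases against primary tumors became 9743 with array weights, 1175 with only the compared groups and 1096 without primary tumors 2 and 3. In allografts against primary tumors, 6784 became 2893 with only the compared groups and 3188 without primary tumors 2 and 3. In allografts against metastases, 3872 became 6511 with array weights. Leaving out each library gave 7046 to 9116 for primary tumors, 9813 to 11620 for metastases and 10335 to 11732 for allografts against sorted cells, 1162 to 6215 for metastases and 4905 to 7947 for allografts against primary tumors, and 1944 to 4856 for allografts against metastases. The share of higher calls in primary tumors against sorted cells was 90.8%, against 35.9% with library rescaling, 43.8% with quantile normalization, 58.6% with median-of-ratios scaling, 74.9% without the 50 most abundant genes and 56.4% with protein-coding genes. In metastases it was 78.9%, against 43.7% to 63.8%, and in allografts 75.6%, against 33.6% to 57.1%. Between tumor groups, library rescaling gave 31.9% against 49.3% for allografts against primary tumors and 17.5% against 44% for allografts against metastases, and leaving out the 50 most abundant genes gave 29.4% and 23.8% there and 43.2% against 54.2% for metastases against primary tumors.

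Reversed member changes were as follows. Without primary tumors 2 and 3, allografts against primary tumors turned to -0.64 for Tgfb1, -0.26 for Tgfb2, -0.079 for Tgfb3, -0.23 for Tgfbr1 and 0.23 for Tgfbr3, and metastases against primary tumors to -0.19 for Tgfb1 and -0.38 for Tgfbr1. Of the reversed changes only that of Tgfb3 had been called. With library rescaling, Tgfb1 turned to -0.018 in allografts against primary tumors, Tgfbr1 to -0.20 and Tgfbr2 to -0.16 in allografts against metastases, and Tgfbr3 to -0.36 in allografts and -0.47 in metastases against sorted cells. Without the 50 most abundant genes, Tgfb1 turned to -0.032 in allografts against primary tumors, and Tgfbr1 to -0.11 and Tgfbr2 to -0.071 in allografts against metastases. In metastases against sorted cells Tgfbr3 turned to -0.069 with median-of-ratios scaling, -0.051 with protein-coding genes and -0.24 with quantile normalization, which also turned Tgfb2 to -0.56 in primary tumors. In allografts against metastases Inhba turned to -0.038 with array weights. Leaving out each library in turn, Inhba ranged from -0.23 (without allograft tumor 3) to 0.78 and Tgfbr1 from -0.068 (without allograft tumor 1) to 0.31 in allografts against metastases. In allografts against primary tumors Tgfb1 ranged from -0.24 (without primary tumor 2) to 0.74 and Tgfbr3 from -0.74 to 0.022 (without primary tumor 3). The cause was not tested.

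With the replicate number as a block, the members called were 7, 8 and 9 in primary tumors, metastases and allografts against sorted cells, 4 in metastases and 5 in allografts against primary tumors, and 0 in allografts against metastases. Under the block Tgfbr2 lost its call in metastases against primary tumors (0.74, adjusted p = 0.0567 by limma). Tgfbr3 gained one in allografts against sorted cells (0.90, adjusted p = 0.0191 by limma).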
